A study of Homo sapiens with 10 samples.

Results

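The pentose phosphate pathway was examined in ARPE-19 cells through the transcripts of 9 of its enzymes: PGLS, PGD, RPIA, RPE, TKT, TALDO1, RBKS, PRPS1 and PRPS2. These are the rows of the deposited read-count table that carry 1 of these gene symbols, 9 of 22626 rows. All 9 passed the filter on low counts. ARPE-19 is an established human cell line derived from the retinal pigment epithelium. It was grown in DMEM with fetal bovine serum and then cultured for 48 h either at 5.5 mM glucose with 32 mM mannitol (the control group, n = 5) or in medium with 37.5 mM glucose (the HG group, n = 5). Mannitol is a sugar alcohol that cells take up poorly and that balances the osmotic load of the added glucose, so more glucose came with less mannitol, and which of them a difference goes with cannot be told apart. The study used high glucose as a model of diabetes in culture. The labels do not say that the libraries came from separate cultures, so the p-values measure the spread between these libraries, which may be technical. Transcript levels are shares of a library, and less of a transcript per cell cannot be told apart from a change in the rest of the RNA.

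The pathway takes glucose that has entered the cell and been phosphorylated, and runs in 2 branches. The oxidative branch removes a carbon, reduces NADP to NADPH and ends in a pentose phosphate. PGLS, a lactonase, and PGD, a dehydrogenase, carry out its later steps. The non-oxidative branch interconverts sugar phosphates reversibly and connects the pentoses with glycolysis. In it RPIA and RPE convert the pentose phosphates into each other, while TKT, the transketolase, and TALDO1, the transaldolase, move carbon units between sugars. RBKS phosphorylates free ribose, and PRPS1 and PRPS2 turn ribose phosphate into phosphoribosyl pyrophosphate, from which nucleotides and NAD are made. NADPH serves lipid synthesis and the reduction of glutathione and thioredoxin, and the retinal pigment epithelium is a tissue with a high oxidative load. The gene symbol RPE, ribulose phosphate epimerase, is used here for the gene alone and not for the tissue.

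The libraries held between 33039260 and 45864176 counts in the control group and between 32448991 and 44400714 in the HG group. TXNIP, a gene that glucose induces, was between 0.809 and 1.23 CPM (counts scaled to each library's normalized size) in the control group and between 5.38 and 12.9 CPM in the HG group, which checks the labels. Control libraries go by the replicate number of their label. For the HG libraries the labels settle the group alone, and they go by their column names, HG_1 to HG_5. Control replicate 2 and HG_1 stood apart: per 10 points of GC content of the transcript, log2 CPM climbed by 0.171 and 0.189 in them, while the slopes of the other 8 libraries lay between -0.0890 and -0.00473. Sampling noise was exceeded in all 20 pairs of libraries of the same group (chi-square per gene between 13.8 and 78.5). Of 14 markers of the retinal pigment epithelium, the visual cycle genes RPE65 and RGR were at or near 0, with at most 6 counts, and TTR was at 0. The visual cycle genes RLBP1 (between 245 and 572 counts) and RDH5 (between 174 and 293) were present, as were KRT8, KRT18, MITF and OTX2. BEST1, which overlaps the abundant FTH1 on the opposite strand and whose counts are uncertain for that reason, had between 24 and 18223 counts and a log2 fold change of -4.97 (edgeR adjusted p = 0.0670). It was highest in control replicates 4 and 1, and the groups overlapped. KRT8, KRT18 and PMEL fell, 3 of the 10 that could be tested, and with the GC and length trend removed 7 of the 10 fell. Of all rows tested, 7.8% fell, and 15.1% with the trend removed. The summed FPKM of these markers, of which KRT8 and KRT18 held most, was between 1549 and 1927 in the control group and between 992 and 1300 in the HG group. Of 13 markers of other cells of the retina, choroid and blood, CDH5, CD3E and CRX were among those at 0. The summed FPKM of the 13, of which ACTA2 and COL1A1 held most, was between 39.96 and 47.1 in the control group and between 30.1 and 36.2 in the HG group. COL1A1 and ACTA2 fell, 2 of the 4 tested markers. The part of these differences in the results below was not tested.

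With all libraries, 3 of the 9 enzymes passed an adjusted p under 0.05 by edgeR (quasi-likelihood test, Benjamini-Hochberg adjustment over 14936 rows). PGD rose, and PRPS1 and PRPS2 fell. Over all rows tested, 15.4% passed in either direction, 7.62% as higher and 7.8% as lower. The groups did not overlap in 2 of the 9 enzymes, PRPS1 and PRPS2, against 13.6% of all rows (6.74% with the HG group above and 6.91% below). The median log2 fold change of all rows tested lay at 0.00132. Leaving out control replicate 2 and HG_1 gave 6 of the 9, 3 higher and 3 lower, against 27.1% of all rows (13.3% higher, 13.8% lower). Taking the trend with GC content and transcript length out of every library gave 7 of the 9, 3 higher and 4 lower, against 29.8% of all rows (14.7% higher, 15.1% lower). Both the count for the enzymes and that for all rows grew. RPIA and RBKS did not pass in any fit.

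PRPS1 was the enzyme with the largest change. It lies on the plus strand of chromosome X from 107628424 to 107651026 (GRCh38, GENCODE release 29), and PRPS2 lies on the same chromosome from 12791355 to 12824222, also on the plus strand. Both encode phosphoribosyl pyrophosphate synthetases, isoforms that catalyse the same reaction. No other annotated gene overlaps either of them, and no stretch of 100 bases of their longest coding transcripts recurs in a transcript of another gene (0 of 2053 for PRPS1 and 0 of 2412 for PRPS2), so reads of such length would not be shared between the 2 genes. Their promoters, from 250 bases before to 50 bases after the RefSeq transcription start on GRCh38.p14, are shown because the 2 genes changed to unequal extents. They are printed from 5′ to 3′ on the plus strand, with no capitals because none of the motifs marked in capitals further on was found in them. PRPS1 is taken from chrX:107628260-107628559 and PRPS2 from chrX:12791162-12791461.
PRPS1: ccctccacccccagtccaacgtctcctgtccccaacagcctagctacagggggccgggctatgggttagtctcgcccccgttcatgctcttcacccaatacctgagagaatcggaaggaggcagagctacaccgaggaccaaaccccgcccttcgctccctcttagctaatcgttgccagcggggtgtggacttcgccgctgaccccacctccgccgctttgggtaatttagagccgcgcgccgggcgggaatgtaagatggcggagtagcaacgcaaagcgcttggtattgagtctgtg
PRPS2: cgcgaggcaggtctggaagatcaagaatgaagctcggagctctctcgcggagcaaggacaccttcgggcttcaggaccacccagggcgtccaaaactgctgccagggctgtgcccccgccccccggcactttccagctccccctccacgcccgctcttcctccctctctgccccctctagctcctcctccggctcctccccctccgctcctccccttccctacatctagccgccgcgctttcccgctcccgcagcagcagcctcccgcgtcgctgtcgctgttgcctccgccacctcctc

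In the control libraries PRPS1 was at 139, 142, 124, 146 and 146 CPM (replicates 1 to 5), and in HG_1 to HG_5 it was at 77.2, 70.5, 72.2, 73.4 and 89.2 CPM. The lowest control library, replicate 3, lay well above the highest HG library, HG_5. The group means were 139 ± 9.22 and 76.5 ± 7.52 CPM (SD, n = 5 each), and PRPS1 fell by 45.1%, with a log2 fold change of -0.86 (95% interval -1.02 to -0.70, edgeR adjusted p = 6.97e-05). By its p-value PRPS1 ranked 32 among the 14936 rows, and its mean level lay at percentile 87.0. The log2 fold change was -0.86 without control replicate 2 and HG_1 and -0.91 with the GC and length trend removed. The transcript of PRPS1 has a GC content of 47.3%, and in HG_1 and control replicate 2 it deviated from the other libraries of its group by 0.02 and 0.03 log2 units.

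PRPS2 was at 44.4, 43.8, 46.5, 46.1 and 47.1 CPM in the control libraries and at 37.8, 41.9, 40.7, 41.8 and 41.1 CPM in HG_1 to HG_5. The groups did not overlap, but only by a small gap between control replicate 2 and HG_2. PRPS2 fell by 10.7%, with a log2 fold change of -0.16 (95% interval -0.27 to -0.06, edgeR adjusted p = 0.0368). The call was near the limit: with single libraries left out PRPS2 passed in 2 of 10 fits, and its adjusted p in them reached 0.0938, without control replicate 5. With the GC and length trend removed the log2 fold change was -0.22 (edgeR adjusted p = 0.000473).

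Per transcript length, PRPS1 was the more abundant of the pair. It held 78.1 ± 1.67% of the summed FPKM of both genes in the control group and 69.1 ± 2.56% in the HG group (SD, n = 5 each). The share was between 75.3% and 79.6% in the control libraries and between 66.8% and 72.2% in the HG libraries, without overlap. The summed FPKM of both genes was 81.3 ± 5.69 in the control group and 51.2 ± 3.29 in the HG group. On the CPM scale the log2 ratio of PRPS2 to PRPS1 was between -1.69 and -1.41 in the control libraries and between -1.12 and -0.75 in the HG libraries, with a difference of the group means of 0.70.

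PRPS1L1, a testis-specific synthetase gene, had 0 counts in every library, which allows up to 3 counts, or between 0.0654 and 0.0925 CPM. PRPSAP1 and PRPSAP2, which encode proteins associated with the synthetases, had log2 fold changes of -0.13 (edgeR adjusted p = 0.09996) and -0.03 (edgeR adjusted p = 0.738). Of 7 enzymes that use phosphoribosyl pyrophosphate, 1 passed, NAMPT, the enzyme of NAD salvage, which rose from 125 to 159 CPM (log2 fold change 0.35, edgeR adjusted p = 0.0273). With single libraries left out, 1 of the 7 was called by edgeR without HG_1, control replicate 4 or control replicate 5, but not without any of the others, and none of the 7 was called by limma on FPKM. The count of 1 of 7 lay near the 15.4% of all rows. The median of the 7 was -0.07, and PPAT, the first enzyme committed to purine synthesis, had a log2 fold change of -0.07 (edgeR adjusted p = 0.759).

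**Figure D1:**
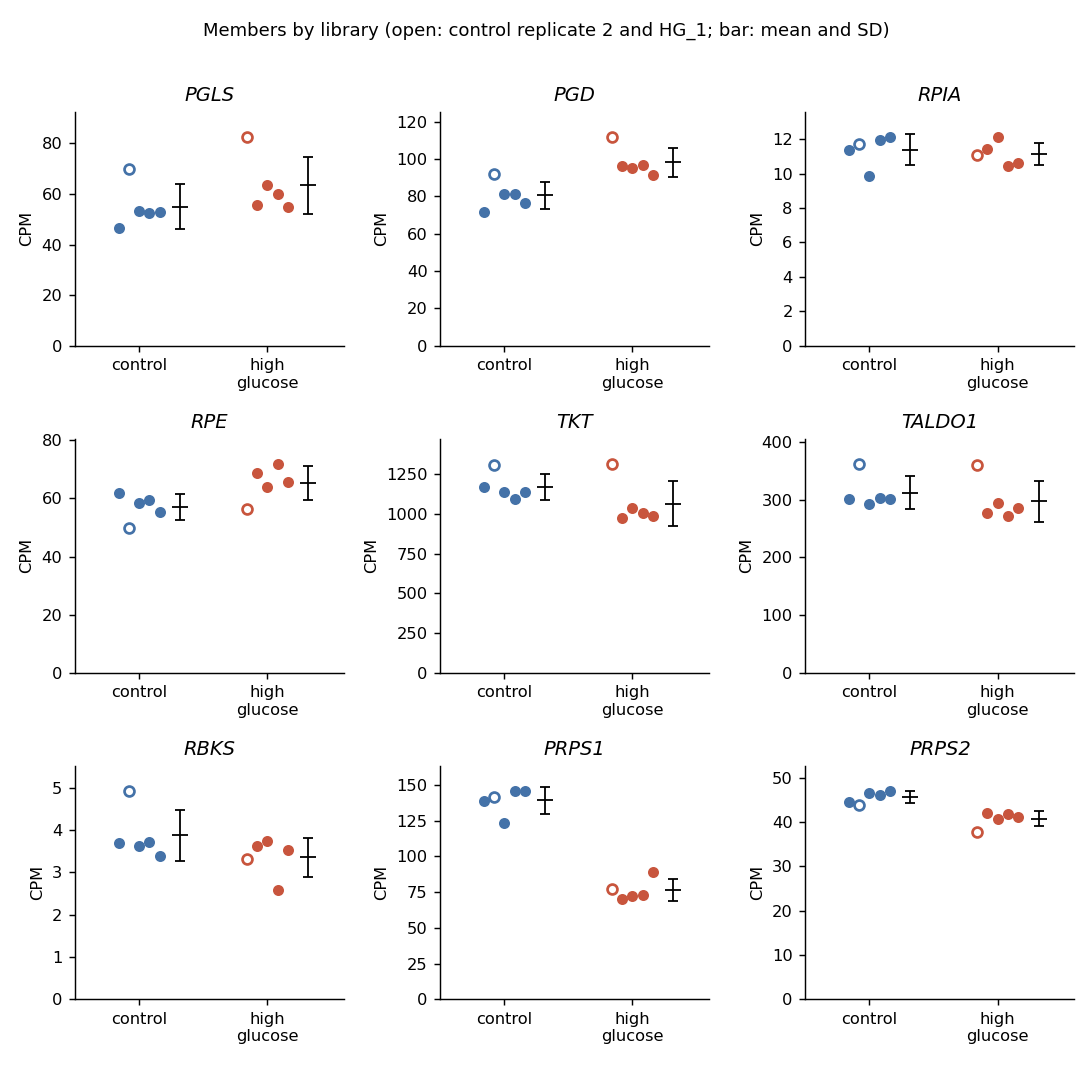
CPM of the 9 enzymes in each library, with the 5 control libraries on the left and the 5 HG libraries on the right of each panel. Open points are control replicate 2 and HG_1, and the bars give the mean and SD of each group. The HG libraries of PRPS1 lie between 70.5 and 89.2 CPM, below all control libraries, and the open points lie highest in their group for PGLS, PGD, TKT and TALDO1 and lowest for RPE and PRPS2.

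In the oxidative branch, PGD encodes the dehydrogenase that releases the carbon and yields NADPH. The gene lies on the plus strand of chromosome 1 from 10398592 to 10420144 (GRCh38), with no overlapping annotated gene. Its promoter, from chr1:10398814-10399113 (GRCh38.p14, RefSeq), is shown because PGD was the enzyme that rose with all libraries. It is also shown because it holds 1 match to the core of the antioxidant response element, TGACNNNGC on either strand, marked in capitals. The window was set by the RefSeq start, which lies downstream of the GENCODE start given above. The whole window, with the marked match, therefore lies inside the gene as GENCODE places it and not upstream of it.
PGD: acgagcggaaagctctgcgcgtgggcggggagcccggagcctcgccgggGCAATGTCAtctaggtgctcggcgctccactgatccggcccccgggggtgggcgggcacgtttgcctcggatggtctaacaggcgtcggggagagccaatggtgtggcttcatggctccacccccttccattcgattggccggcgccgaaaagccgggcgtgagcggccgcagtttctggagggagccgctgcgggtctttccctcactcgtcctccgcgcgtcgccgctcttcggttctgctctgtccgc

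Among the promoters of the 9 enzymes, those of PGD and RPE held this core, against 13.3% of 35116 promoters of the same length. CACGTG, the box to which glucose-sensing factors of the MondoA and ChREBP family can bind, and TGATGCAA, a core of elements for ATF4, occurred in none of the 9, against 7.26% and 0.866% of all promoters. GGGCGG, the GC box, occurred in all 9 and in 45.0% of all promoters. Each motif was searched on both strands, and the matches to TGACNNNGC overlapped no GC box. These are matches of letters within 300 bases. For PGD and RBKS all of these bases lie inside the gene as GENCODE places it, because the RefSeq start lies further downstream.

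PGD was at 71.9, 91.8, 81.3, 81.4 and 76.3 CPM in the control libraries and at 112, 96.4, 95.2, 96.7 and 91.4 CPM in HG_1 to HG_5. The groups overlapped by a single pair, control replicate 2 and HG_5. PGD rose from 80.5 ± 7.42 to 98.3 ± 7.86 CPM (SD, n = 5 each), an increase of 22.1% and a log2 fold change of 0.29 (95% interval 0.12 to 0.45, edgeR adjusted p = 0.0240). With the GC and length trend removed it was 0.26 (edgeR adjusted p = 0.000301), and the groups no longer overlapped. The call was lost without control replicate 1 (log2 fold change 0.25), replicate 3 (0.29) or replicate 5 (0.27), with adjusted p-values up to 0.0628 from edgeR.

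PGLS hydrolyses the lactone of the preceding step. It lies on the plus strand of chromosome 19 from 17511629 to 17521288, with 2 annotated non-coding genes on the opposite strand, and AC010618.3, one of them, shares 17.4% of the 100-base stretches of the longest PGLS transcript. Whether the counting used the strand is not given in the sources used here. PGLS was at 46.5, 69.9, 53.4, 52.4 and 52.8 CPM in the control libraries and at 82.6, 55.5, 63.7, 60.0 and 55.0 CPM in HG_1 to HG_5. Control replicate 2 and HG_1 were each the highest of their group, and the groups overlapped. With all libraries the log2 fold change was 0.20 (95% interval -0.09 to 0.49, edgeR adjusted p = 0.357). It was 0.09 without HG_1 alone (edgeR adjusted p = 0.599) and 0.31 without control replicate 2 alone (edgeR adjusted p = 0.102). Without both of these libraries it was 0.19 (edgeR adjusted p = 0.0473), and with the GC and length trend removed 0.19 (95% interval 0.09 to 0.28, edgeR adjusted p = 0.00633), and PGLS then rose without overlap between the groups.

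PGLS has the highest GC content of the 9 transcripts, 66.0%, and the deviation of HG_1 and control replicate 2 differed between the enzymes. HG_1 was 0.50 log2 units above the mean of the other HG libraries for PGLS, 0.39 above for TKT (GC content 58.1%) and 0.35 above for TALDO1 (56.5%). For RPE, with the lowest GC content (36.6%), it was at -0.26, and for PRPS2 (43.1%) at -0.13. Control replicate 2 differed from the other control libraries by 0.45 for PGLS, 0.21 for TKT, 0.27 for TALDO1, -0.23 for RPE and -0.07 for PRPS2. RBKS, at 53.4% GC, was at 0.45 in control replicate 2 and at -0.01 in HG_1.

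**Figure D2:**
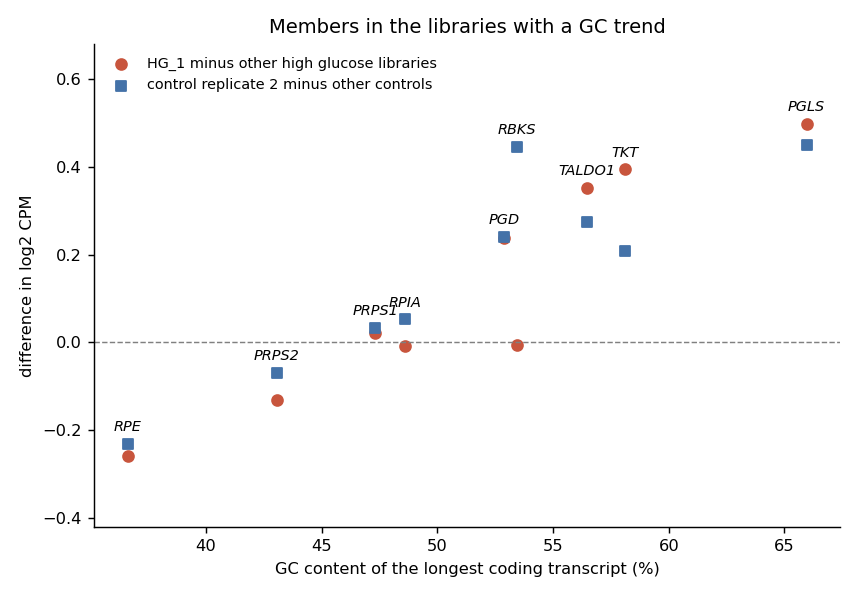
Difference in log2 CPM between HG_1 and the mean of the other HG libraries (circles) and between control replicate 2 and the mean of the other control libraries (squares), plotted for the 9 enzymes against the GC content of the longest coding transcript. The differences run from -0.26 and -0.23 for RPE at 36.6% GC to 0.50 and 0.45 for PGLS at 66.0% GC.

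In the non-oxidative branch none of the 4 enzymes passed with all libraries, where the unadjusted p was under 0.05 for RPE alone. TKT, at chromosome 3 from 53224707 to 53256052 on the minus strand, was at 1170, 1310, 1138, 1096 and 1136 CPM in the control libraries and at 1317, 974, 1041, 1006 and 988 CPM in HG_1 to HG_5. Apart from HG_1, every HG library lay below every control library. The log2 fold change was -0.14 with all libraries (95% interval -0.33 to 0.06, edgeR adjusted p = 0.351). It was -0.09 without control replicate 2 (edgeR adjusted p = 0.525). It was -0.22 without HG_1 (edgeR adjusted p = 0.0170), -0.18 without HG_1 and control replicate 2 (edgeR adjusted p = 0.00323) and -0.12 with the GC and length trend removed (edgeR adjusted p = 0.0264), and TKT fell in the last 3 of these fits.

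TALDO1, at chromosome 11 from 747329 to 765024 on the plus strand, was at 301, 362, 292, 303 and 300.4 CPM in the control libraries and at 359, 276, 294, 271 and 285 CPM in HG_1 to HG_5. The 2 libraries with the GC trend were again the highest of their groups, and the groups overlapped. The log2 fold change was -0.07 (95% interval -0.26 to 0.12, edgeR adjusted p = 0.667), and it was -0.01 without control replicate 2 and -0.14 without HG_1. With the GC and length trend removed it was -0.11 (95% interval -0.18 to -0.05, edgeR adjusted p = 0.0151), without overlap between the groups, while leaving out both libraries gave -0.09 (edgeR adjusted p = 0.0651).

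RPE lies on the plus strand of chromosome 2 from 210002565 to 210022259, and 26.9% of such stretches of its longest transcript recur in transcripts of KANSL1L, which overlaps it on the other strand, or of the retrocopy RPEL1. KANSL1L had between 462 and 783 counts and a log2 fold change of -0.01 (edgeR adjusted p = 0.970), and RPEL1 had between 6 and 37 counts, against between 1960 and 2872 for RPE. RPE was at 61.7, 49.97, 58.4, 59.3 and 55.4 CPM in the control libraries and at 56.4, 68.7, 64.0, 72.0 and 65.7 CPM in HG_1 to HG_5. All HG libraries except HG_1 lay above all control libraries. The log2 fold change was 0.20 with all libraries (95% interval 0.03 to 0.37, edgeR adjusted p = 0.108), 0.25 without HG_1 (edgeR adjusted p = 0.0235), 0.20 without both libraries (edgeR adjusted p = 0.0137) and 0.16 with the GC and length trend removed (edgeR adjusted p = 0.00746), and in the last fit the groups did not overlap.

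RPIA, the isomerase, lies on chromosome 2 from 88691644 to 88750935. It was between 9.83 and 12.1 CPM in the control group and between 10.5 and 12.1 CPM in the HG group. Its log2 fold change was -0.03, with a 95% interval from -0.21 to 0.14 (edgeR adjusted p = 0.838). RBKS, the ribokinase, lies on chromosome 2 from 27781364 to 27891098 on the minus strand, across from BABAM2 and MRPL33. With between 85 and 220 counts per library it was the least abundant of the 9, between 3.39 and 4.93 CPM in the control group and between 2.58 and 3.74 CPM in the HG group. Its log2 fold change was -0.20 (95% interval -0.53 to 0.12, edgeR adjusted p = 0.421), which takes in 0 as well as a decrease of the size seen in PRPS2.

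**Figure D3:**
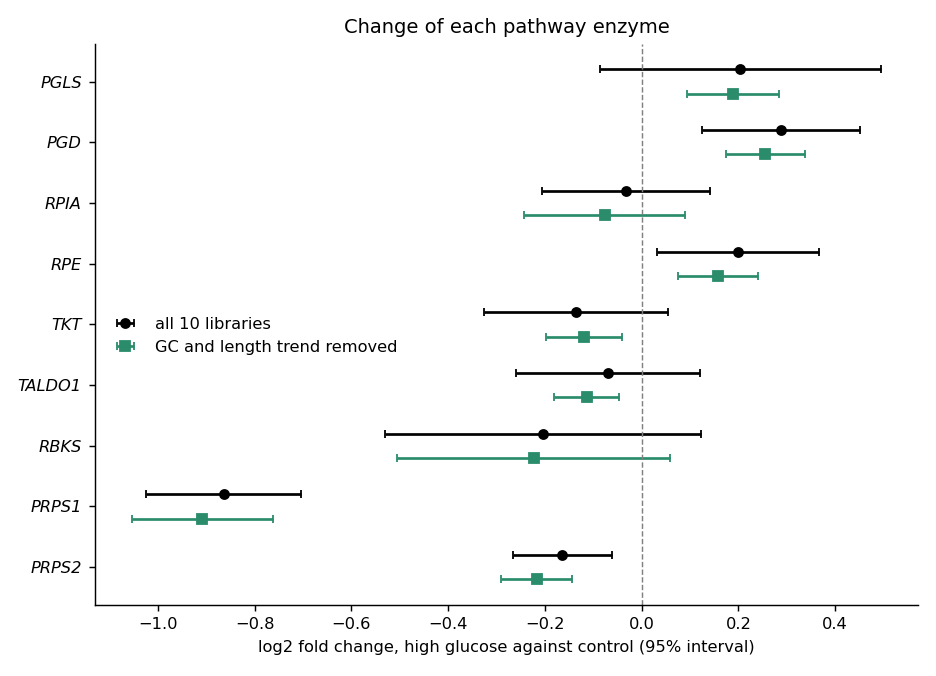
Log2 fold change of each enzyme, HG against control, with its 95% interval from edgeR, with all 10 libraries (circles) and after the trend with GC content and transcript length was taken out of each library (squares). The interval of PRPS1 runs from -1.02 to -0.70, and those of PGLS, TKT and TALDO1 take in 0 with all libraries and exclude it after the trend is removed.

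To contrast the branches, the mean log2 CPM of RPIA, RPE, TKT and TALDO1 was subtracted from that of PGLS and PGD in each library. This is a description of the members and has no test, and the oxidative mean stands for PGLS and PGD, not for the whole branch. The difference was -1.12, -0.69, -0.84, -0.92 and -0.96 in the control libraries and -0.45, -0.72, -0.67, -0.65 and -0.74 in HG_1 to HG_5. The groups overlapped through control replicate 2, which lay above HG_2 and HG_5. The group means were -0.90 ± 0.16 and -0.65 ± 0.12 (SD, n = 5 each), so the mean of PGLS and PGD stood higher against that of the 4 non-oxidative enzymes by 0.26 log2 units in the HG group. With the GC and length trend removed the difference of the group means was again 0.26, and the ranges, -1.04 to -0.81 and -0.70 to -0.57, did not overlap.

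The non-oxidative mean holds RPE, whose log2 fold change with all libraries, 0.20, was above 0 like those of PGLS (0.20) and PGD (0.29). The ratios given next set PGD against TKT and TALDO1 alone, whose log2 fold changes were -0.14 and -0.07. No ratio to RPE or RPIA and none of PGLS was taken, so these ratios do not stand for the branches. The log2 ratio of PGD to TKT was between -4.02 and -3.75 in the control libraries and between -3.56 and -3.34 in the HG libraries, a difference of the means of 0.43. That of PGD to TALDO1 was between -2.06 and -1.85 and between -1.68 and -1.49, a difference of 0.36. Neither ratio overlapped between the groups, and the differences were 0.38 and 0.37 with the GC and length trend removed.

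**Figure D4:**
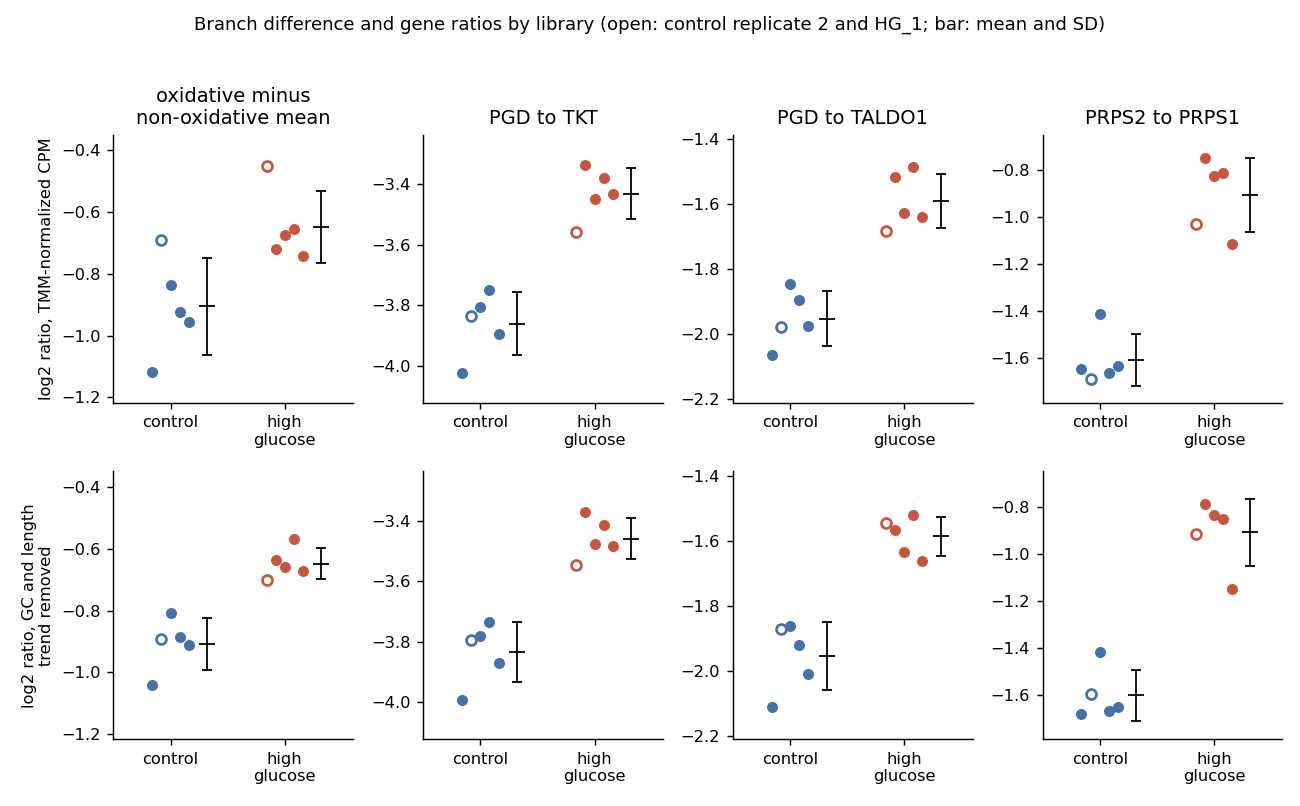
Difference between the mean log2 CPM of the oxidative and the non-oxidative enzymes, and log2 ratios of PGD to TKT, PGD to TALDO1 and PRPS2 to PRPS1, in each library, as normalized (top) and with the GC and length trend removed (bottom). Open points are control replicate 2 and HG_1, and the bars give the mean and SD. The branch difference overlaps between the groups in the top row and not in the bottom row, and the 3 ratios do not overlap in either.

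Levels of different enzymes were compared on the deposited FPKM scale, which is divided by transcript length. TKT was the most abundant in both groups, with 440.2 ± 60.9 FPKM in the control group and 404 ± 84.4 in the HG group (SD, n = 5 each), followed by TALDO1 with 241 ± 17.1 and 232 ± 23.2. In the control group PRPS1 (63.6 ± 5.36) and PGLS (50.8 ± 7.28) came next, with ranges that overlapped, then PGD (32.9 ± 2.63), RPE (20.8 ± 3.37), PRPS2 (17.7 ± 1.05), RPIA (5.80 ± 0.4704) and RBKS (2.78 ± 0.394). The ranges of RPE and PRPS2 also overlapped there. In the HG group PGLS (58.7 ± 8.99) and PGD (40.6 ± 2.42) stood above PRPS1 (35.4 ± 3.16), the last 2 with ranges that overlapped, and RPE (23.2 ± 3.50) stood above PRPS2 (15.8 ± 1.18) without overlap. The FPKM values did not follow the counts for every gene: TKT in HG_3 had 329.6 FPKM at 1041 CPM and in HG_4 415 FPKM at 1006 CPM, and RPE in control replicate 5 had 25.8 FPKM at 55.4 CPM against 19.9 FPKM at 59.3 CPM in replicate 4.

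**Figure D5:**
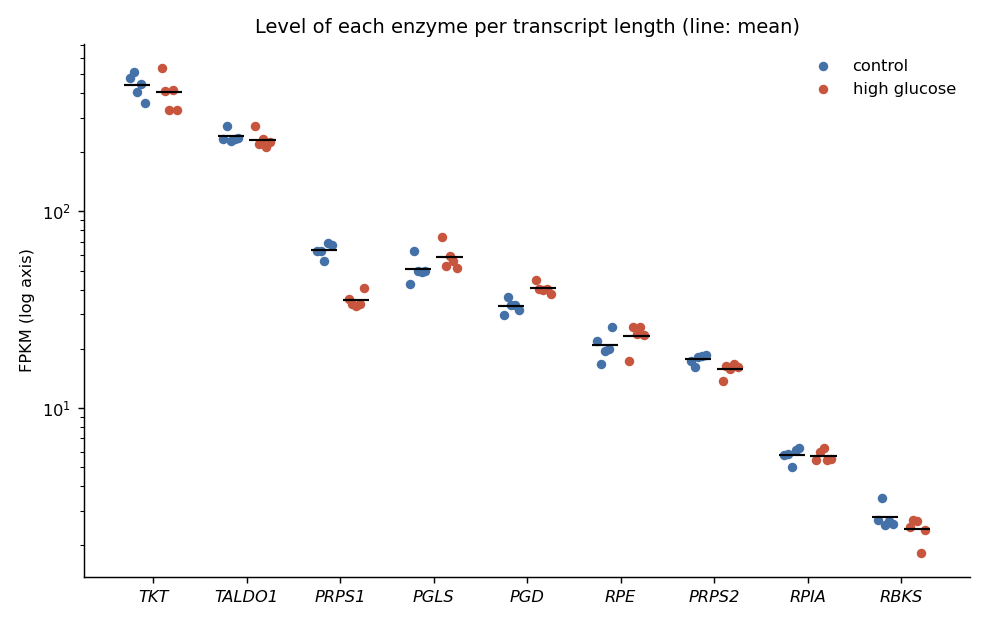
Deposited FPKM of the 9 enzymes on a log axis, ordered by their mean in the control group, with a point for each library and a line at the mean of the group. TKT lies highest, with means of 440.2 and 404 FPKM, RBKS lowest, with 2.78 and 2.41, and PRPS1 drops from 63.6 to 35.4 FPKM.

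Of 14 other genes of the pathway and of sugar phosphate metabolism, 11 passed the filter and 2 of them rose. XYLB, which makes xylulose phosphate, an intermediate of the non-oxidative branch, rose from 5.58 to 8.47 CPM (log2 fold change 0.60, edgeR adjusted p = 0.00161). GPI, the isomerase that leads the same hexose phosphate into glycolysis, rose from 438 to 546 CPM (log2 fold change 0.32, edgeR adjusted p = 0.0173). The median of the 11 was 0.10, and over all rows tested 15.4% were called and 7.62% rose. TIGAR, a phosphatase that is known to direct sugar into the pathway, had a log2 fold change of 0.10 (edgeR adjusted p = 0.301), and SHPK, which makes a substrate of the transaldolase, one of -0.21 (edgeR adjusted p = 0.164). TKTL1, a relative of TKT, had 0 counts in every library.

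Other sources and uses of NADPH gave the following. Of 9 other enzymes that produce NADPH or NADP, 2 rose: NNT, the transhydrogenase of the mitochondrion, by 0.38 log2 units (edgeR adjusted p = 0.00704) and ME1, the cytosolic malic enzyme, by 0.26 (edgeR adjusted p = 0.0363). Their median was -0.04. Without any single library other than HG_1 or control replicate 4, 1 of the 9 was called, and with the GC and length trend removed 2 of the 9 rose and 2 fell. Of 16 enzymes that use NADPH, 6 rose and 1 fell, with a median of 0.17, and with the GC and length trend removed 9 rose and 2 fell. Over all rows tested 15.4% were called, and 29.8% with the trend removed. DHCR7, a reductase of sterol synthesis, rose by 0.76 (edgeR adjusted p = 0.00111), and BLVRB, a biliverdin reductase, rose by 0.57 (edgeR adjusted p = 0.0176). AKR1B1, the aldose reductase that turns glucose into sorbitol, fell from 1277 to 904 CPM (log2 fold change -0.50, edgeR adjusted p = 0.00608).

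PGD, TKT and TALDO1 are known as targets of NRF2, the transcription factor of the antioxidant response. Of 13 other genes that NRF2 induces, 5 rose and 1 fell, with a median of 0.15, and with the GC and length trend removed 7 rose and 1 fell. The shares over all rows tested were 7.62% higher and 7.8% lower, and 14.7% and 15.1% with the trend removed. HMOX1 rose by 0.66 (edgeR adjusted p = 0.00158), SLC7A11 by 0.57 (edgeR adjusted p = 0.00993) and OSGIN1 by 0.55 (edgeR adjusted p = 0.0306), while ABCC1 had a log2 fold change of -0.45 (edgeR adjusted p = 0.000711). Of 7 genes that glucose induces through MondoA or ChREBP, 5 passed the filter and 2 rose, TXNIP by 3.15 (edgeR adjusted p = 5.55e-05) and ARRDC4 by 0.74 (edgeR adjusted p = 0.00414), with a median of 0.14. With the GC and length trend removed 2 rose and 1 fell, and with limma on rows averaging at least 1 FPKM 1 was called. Several genes stand in more than one of these lists (GSR, TXNRD1, NQO1 and ME1).

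Over the 10 libraries, the 3 rows of at least 10 CPM whose log2 CPM was most like that of PRPS1 were ACTN1 (Pearson's r = 0.993), HBEGF (0.991) and MDGA1 (0.987), among 9647 rows compared. All 3 had lower means in the HG group, with log2 fold changes of -0.26, -0.85 and -0.77. For PGD they were VAT1 (0.986), SLC6A8 (0.985) and DDB2 (0.985), with log2 fold changes of 0.39, 0.39 and 0.31. These are descriptions over libraries that share the 2 groups and the GC trend, and they carry no p-value.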

How the data were processed

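RNA of ARPE-19 cells was sequenced in 5 control and 5 high glucose libraries. The authors deposited read counts, whole numbers per gene without normalization, and FPKM values of the same libraries, scaled per transcript length and sequencing depth. The submitters' processing notes name fastp 0.20.1, HISAT2 2.2.1 and GRCh38. The counting program and annotation are not given in the sources used here, and the study states that a company did the sequencing. Of 22626 rows, 20463 carry an Ensembl identifier and 2163 are assembled loci (MSTRG).

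Counts were compared with edgeR 4.0.16 in R 4.3.3: default filter, TMM, quasi-likelihood test, Benjamini-Hochberg adjustment over 14936 rows. CPM are scaled to normalized library size, and log2 CPM used a prior count of 2. Intervals of fold changes rest on the spread between libraries. The limit that a count of 0 allows (3 counts) covers counting error only. The alternatives were scaling by library size alone or by RLE factors, DESeq2 1.42.0, no filter, at least 10 counts in every sample, limma 3.58.1 on log2(FPKM + 1) or log2(FPKM + 0.1) and, for the former, on rows averaging at least 1 FPKM, each library left out, control replicate 2 and HG_1 left out together, and each library's lowess trend (span 0.3) on GC content and transcript length removed by an offset, over 13405 rows. The edgeR, DESeq2, limma and GC-corrected fits were tested on simulated counts with known changes. There edgeR called 86 of 199 changed genes with 3 false calls, and limma called 84 of 200 with 3. DESeq2 called 115 of 200 with 36 false calls, more than the other fits. The GC-corrected fit, on counts simulated with a GC trend, called 94 of 185 with 6 false calls.

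The named genes are the 9 enzymes, up to 4 genes of each list with the largest fold change among those called, the 3 rows most like the 2 enzymes with the smallest adjusted p, and TXNIP, and some genes that the rule covers are not reported here. PRPSAP1, PRPSAP2, PPAT, TIGAR, SHPK, the neighbours of the enzymes and the markers were chosen after their values were seen. The members, lists and alternatives were chosen with earlier results of these data known. Promoters come from RefSeq (9 of 9 matched).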

Additional observations from a re-analysis of the deposited data

Results flagged for a closer look

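Each of 14 values (the CPM of 9 enzymes, the branch difference, 3 ratios and the PRPS1 share) was looked at in both conditions, and in 7 of these 28 groups a single library lay far from the rest. Chance alone flags 1 in 20 groups, or about 1.4 here, and the 28 are not independent of each other. PGD reached 112 CPM in HG_1, while the remaining HG libraries ran from 91.4 to 96.7. TKT reached 1317 CPM in HG_1 (974 to 1041 elsewhere in the group) and TALDO1 359 CPM (271 to 294). TALDO1 reached 362 CPM in control replicate 2 (292 to 303 in the remaining controls) and RBKS 4.93 CPM (3.39 to 3.72). HG_1 and control replicate 2 are the libraries with the GC trend, whose part in these values was not tested apart from the fits described above. In control replicate 3 the log2 ratio of PRPS2 to PRPS1 was -1.41, while the remaining controls ran from -1.69 to -1.63, and PRPS1 held 75.3% of the summed FPKM of the pair (78.3% to 79.6% in the remaining controls). Both values describe the same pair of genes in the same library.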

How the results depend on the processing

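PRPS1 passed in the 10 fits that each left out a library and in the 10 other alternatives, with log2 fold changes between -0.93 and -0.83, and no enzyme reversed its direction in any of them. The 3 enzymes called became 6 without both libraries with the GC trend and 7 with the trend removed, and numbered between 1 (without control replicate 1, 3 or 5) and 5 (without HG_1) with single libraries left out, where the count over all rows moved from 1648 (without HG_3) to 2993 (without HG_1). PRPS2 did not pass with library size alone (-0.15), no filter (-0.16), limma on log2(FPKM + 1) (-0.16, also with a mean FPKM of at least 1) or limma on log2(FPKM + 0.1) (-0.17). PGLS, RPE and TKT passed without both libraries (0.19, 0.20, -0.18), and these and TALDO1 with the trend removed (0.19, 0.16, -0.12, -0.11). With single libraries left out the log2 fold changes ranged from 0.24 to 0.34 for PGD, 0.09 to 0.31 for PGLS, -0.08 to -0.01 for RPIA, 0.16 to 0.25 for RPE, -0.22 to -0.0903 for TKT, -0.14 to -0.01 for TALDO1, -0.25 to -0.10 for RBKS, -0.93 to -0.84 for PRPS1 and -0.18 to -0.14 for PRPS2, and the branch difference from 0.20 to 0.31. The cause of these changes was not tested, and the trend of control replicate 2 and HG_1 with GC content moves with them. No paired analysis was possible because the labels of the groups share no replicate numbers.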
